A study of Mus musculus with 4 samples.

Results

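INT1 and INT2 are neighbouring intergenic elements of the mouse Tcra/Tcrd locus on chromosome 14, and the contacts of both were compared within naive B cells. The comparison rests on 2 of the 4 samples of the study and on 4 of its 16 libraries: INT1 in B replicates 1 and 2, and INT2 in the same B replicates. All reads of the B files of these viewpoints were taken, except those in the stretch chr14:54667000-54693000 (mm9), which holds both viewpoints. The B samples were spleen cells labelled naive B from wild-type C57BL/6 mice. The other cell type was CD4-CD8- (double negative, DN) thymocytes of Rag2-/- C57BL/6 mice, taken from litters of mice aged 3 weeks, so that several animals may be pooled in a sample. For the B samples the labels carry the thymocyte protocol, and they give neither the age of the donors nor how the spleen cells were isolated. The libraries hold genomic DNA, so the cell type could not be checked against marker genes. Nothing in the labels says that B replicates 1 and 2 came from separate mice, so the spread that the p-values draw on may be technical. Some p-values rest on a spread pooled over many measurements, as said where the fits are described.

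In 4C-seq, crosslinked chromatin is cut with a restriction enzyme (here HindIII) and religated, and inverse PCR from 1 chosen fragment, the viewpoint, amplifies the fragments that were ligated to it. The number of reads of a fragment is a measure of how often it lay near the viewpoint. The Tcra/Tcrd locus holds the gene segments of the T cell receptor alpha and delta chains, which are rearranged in developing T cells and not in B cells. INT1 and INT2 hold binding sites for CTCF, a protein that anchors chromatin loops, and lie between the V segments and the D segments of the delta chain. TEA is a promoter at the start of the J alpha segments, and Ed is the enhancer of the delta chain. Both served as viewpoints of other libraries and are taken here as targets of INT1 and INT2.

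Each viewpoint fragment was placed from the reads, as the chromosome 14 fragment with the highest mean over all libraries of that viewpoint. The fragments so found were chr14:54677060-54677623 for INT1 and chr14:54680988-54683873 for INT2, with 3.364 kb between their edges. The Ed viewpoint lay at chr14:54763263-54765182 and the TEA viewpoint at chr14:54769627-54773311, both towards higher coordinates, with 85.753 kb between INT2 and TEA. Distances are given from the middle of the left-out stretch, which put INT1 at -2.66 kb and INT2 at 2.43 kb. With rising coordinate, the annotation of the later build GRCm38.p6 lists 130 Trav and 5 Trdv genes before Trdd1, then 2 Trdd and 2 Trdj genes, Trdc, Trdv5, 60 Traj genes, Trac, Dad1 and Abhd4. The side of lower coordinates is called the lower side, and the side that holds Ed and TEA the higher side. No annotation of mm9 was used, so fragments carry coordinates and no gene.

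The INT1 libraries had 7191700 and 9546301 mapped reads, and the INT2 libraries 11814951 and 15722920. Chromosome 14 outside the left-out stretch held 442117 and 613362 reads from INT1, against 656196 and 949322 reads from INT2. The stretch itself took 11.2% of all reads in both INT1 libraries, against 20.3% and 17.2% in the INT2 libraries. Other chromosomes held 82.6% and 82.4% of the INT1 reads, against 74.2% and 76.7% of the INT2 reads. Each element was amplified with primers of its own, so a difference in contact and a difference in amplification cannot be told apart. Every value that follows is a share of the library's chromosome 14 reads outside the stretch. The reads carry no molecular identifiers, so counting error alone understates the error of a share.

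From both elements most of the chromosome 14 reads within 1 Mb lay on the higher side, and INT1 had a slightly larger share within 1 Mb than INT2 in both replicates. Within 1 Mb, INT1 had 21.4% and 23.2% of its chromosome 14 reads, against 20.3% and 20.2% for INT2. The difference of the means was 2.04 percentage points (exact permutation test, two-sided, p = 0.333, the smallest p that 2 against 2 libraries allow). The lower side held 4.15% and 5.39% of the chromosome 14 reads from INT1 and 3.46% and 3.75% from INT2. The higher side held 17.2% and 17.8% from INT1 and 16.8% and 16.4% from INT2. Both INT1 libraries were above both INT2 libraries on each side, and neither difference passed the test (limma, log2 INT1 over INT2 of 0.39 with SE 0.18 on the lower side, adjusted p = 0.255, and 0.07 with SE 0.17 on the higher side, adjusted p = 0.785).

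The 2 elements divided their reads differently over distance. Close to the elements INT1 had more reads on the lower side and INT2 more on the higher side. From 500 to 1000 kb on the higher side INT1 had more. With INT1 at -2.66 kb and INT2 at 2.43 kb, INT1 lay nearer to the lower side and INT2 nearer to the higher side. How far the close differences follow from this offset was not tested. Of 17 segments tested (the sides, the bands, the surroundings of TEA and Ed, and the rest of the chromosome), 0 were called by limma at an adjusted p under 0.05 (0%), and 4 had an unadjusted p under 0.05. In edgeR on the recovered reads 2 segments were called, and in DESeq2, which set its own library scaling, 8. These segments overlap one another in part and are not independent tests.

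On the lower side from the edge of the stretch, at 13 kb, to 50 kb, INT1 had 0.811% and 0.990% of the chromosome 14 reads, against 0.334% and 0.580% for INT2. The groups did not overlap, and INT1 was 2.04 times INT2 in the fit (log2 1.03, SE 0.22, 95% interval of the fold 1.30 to 3.19, limma adjusted p = 0.207). Few fragments stood behind it: 10 were captured in the band, and the richest held 43.6% and 24.7% of the band's reads from INT1 and 62.3% and 33.8% from INT2.

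On the higher side up to 50 kb, INT1 had 1.27% and 1.58%, against 2.29% and 1.76% for INT2 (log2 -0.51, SE 0.25, adjusted p = 0.255). From 50 to 100 kb, the band that holds Ed and TEA, INT1 had 1.78% and 2.12%, against 3.31% and 3.16% for INT2. Both INT2 libraries were above both INT1 libraries in each of these bands. INT2 was 1.66 times INT1 from 50 to 100 kb (log2 INT1 over INT2 of -0.73, SE 0.19, limma adjusted p = 0.207), and this difference was not called either.

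Further out on the higher side the order turned. From 100 to 250 kb the libraries overlapped, with 3.07% and 3.14% from INT1 and 2.74% and 3.11% from INT2 (log2 0.09, SE 0.17, 95% interval -0.43 to 0.61). From 250 to 500 kb INT1 had 4.42% and 4.58%, against 3.99% and 4.02% for INT2 (log2 0.17, SE 0.17, adjusted p = 0.596). From 500 to 1000 kb INT1 had 6.66% and 6.36%, against 4.48% and 4.40% for INT2. In this band and in the one before it the gap between the viewpoints was larger than that between replicates. From 500 to 1000 kb INT1 was 1.47 times INT2 (log2 0.55, SE 0.17, 95% interval of the fold 1.03 to 2.08, limma adjusted p = 0.211). This band was called in edgeR (adjusted p = 0.017) and by limma with a mean-variance trend (adjusted p = 0.020), and in 3 of 11 alternatives in all. By limma it was not called with library size within 1 Mb (adjusted p = 0.288) or with fragments capped at the 95th percentile (0.597). With each captured fragment counted once the log2 value turned to -0.092. The INT1 libraries captured 100 and 101 fragments in the band, against 83 and 93 for the INT2 libraries.

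On the lower side beyond 50 kb the shares were lower and the viewpoints mostly overlapped. INT1 had 0.494% and 0.500% from 50 to 100 kb, between the 0.379% and 0.742% of the INT2 libraries. From 100 to 250 kb INT1 had 0.828% and 1.37%, around the 0.873% and 0.844% of INT2. From 250 to 500 kb INT1 had 0.992% and 1.16%, both above the 0.801% and 0.556% of INT2 (log2 0.68, SE 0.26, adjusted p = 0.244). From 500 to 1000 kb INT1 had 1.03% and 1.38%, and INT2 1.07% and 1.03%. Per 100 kb of chromosome, this outermost lower band averaged 0.240% ± 0.050 from INT1 and 0.210% ± 0.006 from INT2 (SD, n = 2 each), against 1.30% ± 0.04 from INT1 and 0.888% ± 0.011 from INT2 in the same band of the higher side.

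**Figure D1:**
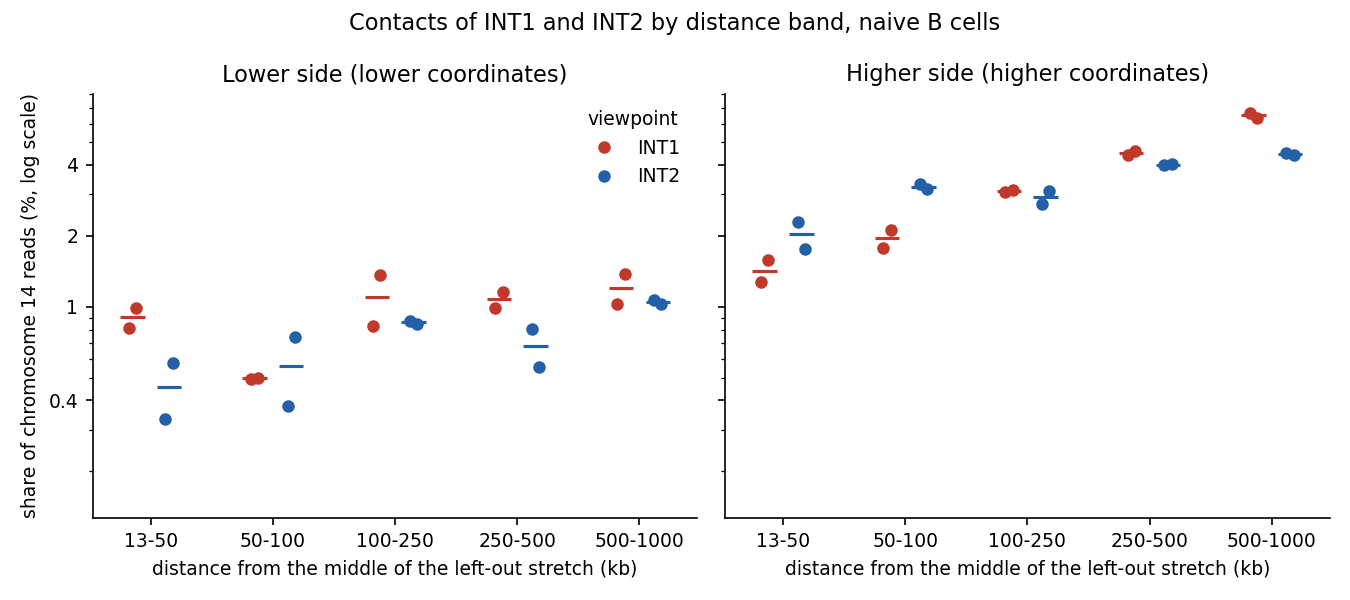
Share of each library's chromosome 14 reads outside the left-out stretch (percent, log scale) by distance band, on the lower side (left panel) and the higher side (right panel), with INT1 left of INT2 in each band, 1 point per B library and a line at the mean of the 2 libraries. INT1 lies above INT2 in the nearest lower band and in the outermost higher band, and INT2 above INT1 in both higher bands under 100 kb.

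The distance within which a side's reads accumulated gives the same pattern without bands on the higher side only. On the higher side, 50% of the reads within 1 Mb lay inside 388 and 372 kb for INT1, against 254 and 268 kb for INT2. The INT1 reads of that side were thus spread further out in both libraries. On the lower side the values overlapped, with 220 and 237 kb for INT1 and 256 and 175 kb for INT2. Beyond 1 Mb on the higher side the elements had 43.1% and 43.0% (INT1) and 43.2% and 42.3% (INT2) of their reads. On the lower side beyond 1 Mb INT1 had 35.5% and 33.8%, against 36.6% and 37.5% for INT2 (log2 -0.10, adjusted p = 0.765).

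The stretch between the elements and TEA held more of the INT2 reads. From the edge of the left-out stretch to the end of the TEA fragment, INT1 had 2.90% and 3.51% of its chromosome 14 reads, against 5.27% and 4.62% for INT2. INT2 was 1.55 times INT1 and its libraries did not overlap those of INT1 (log2 INT1 over INT2 of -0.63, SE 0.21, limma adjusted p = 0.211). The difference was called in edgeR (adjusted p = 0.020) and by limma with a trend (adjusted p = 0.021). In limma without the trend it was called neither with nor without the replicate block, and it was called when reads within 1 Mb set the library size (adjusted p = 0.034). With fragments capped at the 95th percentile of each library it was -0.24 on the log2 scale.

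Within 10 kb of the TEA viewpoint fragment INT1 had 1.17% and 1.34%, against 2.62% and 1.48% for INT2 (log2 -0.66, SE 0.32, adjusted p = 0.255). Within 10 kb of the Ed fragment, a region that overlaps the one around TEA, INT1 had 1.09% and 1.29%, against 2.41% and 1.40% for INT2 (log2 -0.63, SE 0.32, adjusted p = 0.255). Both INT2 libraries were above both INT1 libraries in each region, with INT2 replicate 1 far above the other. Both regions hold the TEA fragment, which made up 36.4% and 50.2% of the INT2 reads around TEA. Around Ed it made up 39.7% and 53.1% of the INT2 reads, so the difference there is not separate from that at the TEA fragment. Without that library the difference around TEA was -0.25 on the log2 scale, and around Ed -0.24.

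The TEA fragment itself had the lowest adjusted p of all fragments and was higher from INT2. It held 0.378% and 0.357% of the chromosome 14 reads from INT1 (1672 and 2192 reads), against 0.954% and 0.745% from INT2 (6263 and 7074 reads). Among all fragments within 1 Mb it ranked 7 and 8 in the INT1 libraries, against 2 and 4 in the INT2 libraries. INT2 averaged 2.29 times INT1 in the fit (log2 INT1 over INT2 of -1.20, SE 0.19, limma adjusted p = 2.9e-07). Here limma took the spread of every fragment from the trend between level and spread over all fragments, and the p rests on that trend. The fold stayed between -1.02 and -1.38 on the log2 scale with each library left out, in fits that also had no replicate block. The adjusted p was 0.26 with no replicate block, 0.87 without the trend, 1 in edgeR and 0.86 in DESeq2. With fragments capped at the 95th percentile this fragment was at the cap in every library, so that its log2 value, -0.042, holds no difference.

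At the Ed fragment no difference was called. It held 0.140% and 0.0841% from INT1, against 0.0905% and 0.141% from INT2, with ranks of 46 and 89 for INT1 and 57 and 32 for INT2. The libraries of the elements overlapped (log2 -0.06, limma adjusted p = 0.99). The difference between the TEA and the Ed fragment was not tested.

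**Figure D2:**
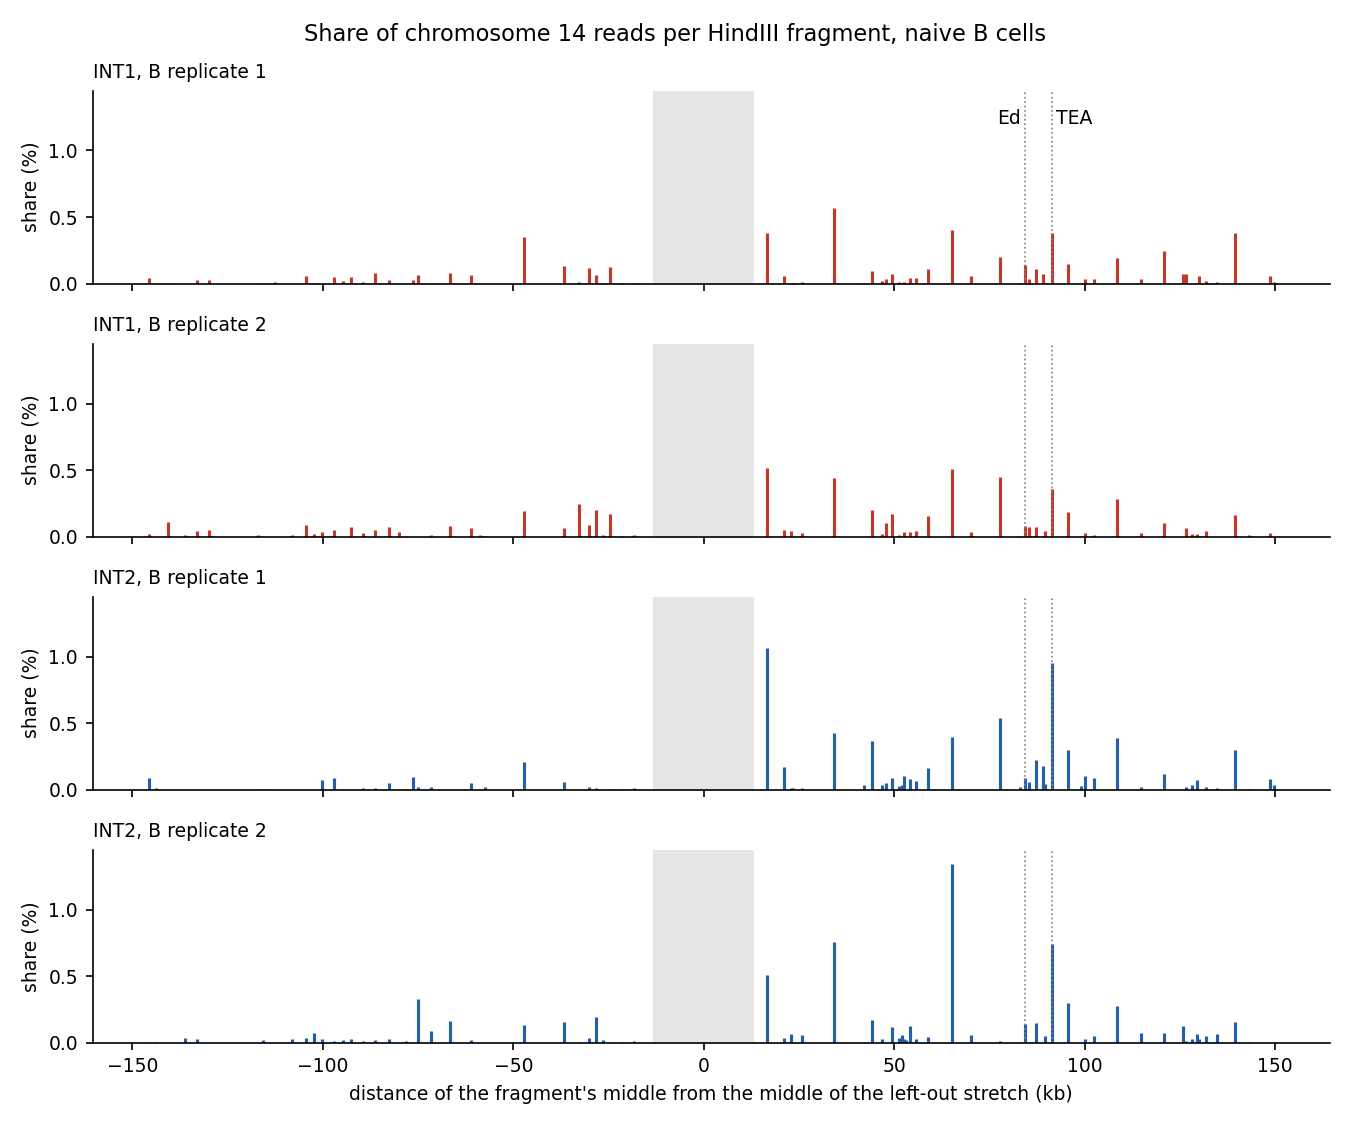
Share of chromosome 14 reads (percent) of each HindIII fragment within 150 kb, by distance of its middle from the middle of the left-out stretch (kb), with 1 panel for each INT1 library and then each INT2 library in naive B cells. The grey area is the left-out stretch and dotted lines mark the Ed and TEA fragments. The TEA fragment stands at 0.378% and 0.357% in the INT1 panels, against 0.954% and 0.745% in the INT2 panels.

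Over all fragments, 462 within 1 Mb had a mean of at least 10 reads and were tested, out of 498 captured in any of the 4 libraries. INT2 was higher in 3 fragments called by limma (0.649% of those tested). INT1 was higher in 0 called fragments (0%), while 47 fragments had an unadjusted p under 0.05 in either direction. With the same filter edgeR called 0 fragments. DESeq2, with its own library scaling, called 25 higher from INT1 and 1 higher from INT2. Both INT1 libraries were above both INT2 libraries in 101 fragments (21.9%), and both INT2 libraries were above both INT1 libraries in 56 (12.1%). The median log2 INT1 over INT2 over all tested fragments was 0.33. Fragments with no read in a library enter these counts and the median. Of the 498 captured fragments, 36 were captured by both INT1 libraries and neither INT2 library, against 7 the other way. The INT1 libraries also captured more fragments within 1 Mb altogether, with 300 found in both replicates against 224 from INT2.

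The other called fragments lay between the elements and TEA, and each had overlapping libraries. The fragment chr14:54693468-54699805, the first one outside the left-out stretch, held 0.379% and 0.517% from INT1, against 1.07% and 0.511% from INT2 (log2 -0.74, SE 0.18, limma adjusted p = 0.017). The fragment chr14:54741524-54748874, at 65.2 kb, held 0.401% and 0.512% from INT1, against 0.394% and 1.34% from INT2 (log2 -0.68, SE 0.18, limma adjusted p = 0.035). In each of them 1 INT2 library stood apart from the other 3 libraries, replicate 1 in the first and replicate 2 in the second. Without INT2 replicate 1 the first was -0.21 on the log2 scale, and without INT2 replicate 2 the second turned to 0.20. The first was called in 0 of its alternatives (adjusted p of at least 0.19), and the second in 1, with the left-out stretch widened (adjusted p = 0.0015).

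Most fragments within 100 kb on the higher side had a larger share from INT2, while over all tested fragments 256 of 462 were higher from INT1. Of the 30 tested fragments on the higher side within 100 kb, 23 were higher from INT2 in the fit, with a median log2 INT1 over INT2 of -0.71. Both INT2 libraries were above both INT1 libraries in 7 of them, and the reverse held in 0. From 50 to 100 kb the count was 6 of 19, and up to 50 kb it was 1 of 11. Of the 25 tested on the lower side within 100 kb, 17 were higher from INT1, with a median of 0.47, and the INT1 libraries stood above in 7 and the INT2 libraries in 2. The corresponding median beyond 500 kb on the higher side was 0.85 over 116 fragments, of which 30 had both INT1 libraries above and 17 both INT2 libraries above. Over all tested fragments these shares were 21.9% with INT1 above and 12.1% with INT2 above, and the lower side within 100 kb and the higher side beyond 500 kb lay close to them. The counts describe the fragments and were not tested as groups. Both the counts and the medians include fragments with no read in some libraries, so they are not a measure of contact level alone.

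**Figure D3:**
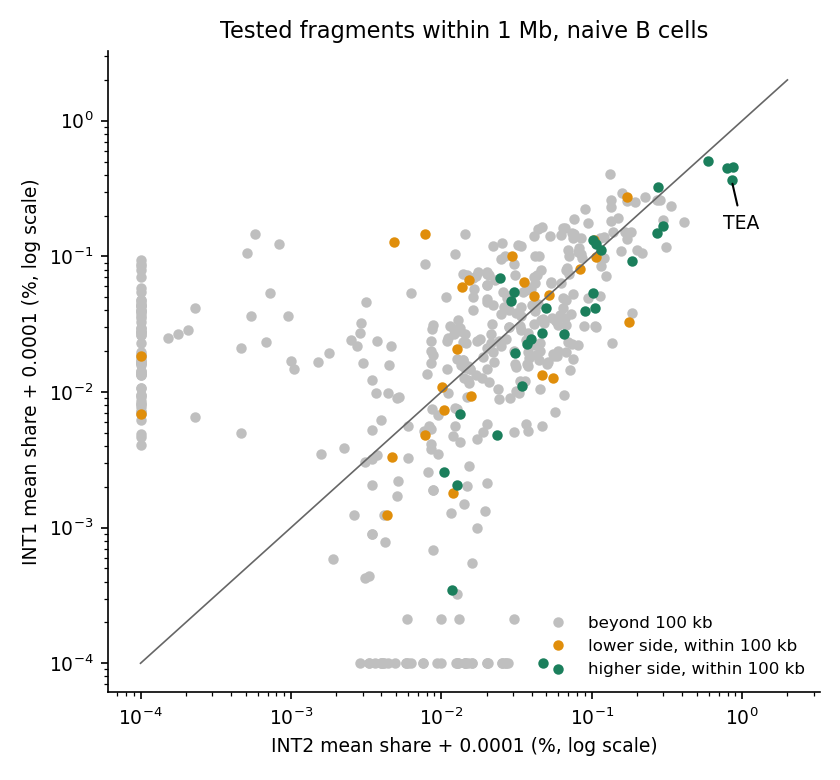
Mean share of chromosome 14 reads per tested fragment (percent, log scales, with 0.0001 added) from INT1 (vertical) and INT2 (horizontal), with the line of equal shares. Fragments of the higher side within 100 kb (green) lie mostly below the line, towards INT2, those of the lower side within 100 kb (orange) mostly above it, and points along the edges had no read from 1 of the viewpoints.

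By level, the elements shared their strongest contacts. The 5 fragments with the highest mean from INT1 and the 5 with the highest mean from INT2 had 4 in common, and all of them lay on the higher side. The shared ones were the TEA fragment, the 2 other called fragments, and chr14:54706512-54721932 at 34.2 kb. That last fragment held 0.570% and 0.443% from INT1, against 0.426% and 0.759% from INT2, with no difference called (log2 -0.18, adjusted p = 0.84).

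The fragment found in the list of INT1 alone was chr14:55064222-55071476, at 388 kb. It held 0.301% and 0.506% from INT1, against 0.120% and 0.145% from INT2 (log2 1.56, SE 0.49, limma adjusted p = 0.081). Its INT1 libraries lay above its INT2 libraries, without passing the threshold. The fragment in the list of INT2 alone was chr14:54979633-54986655, at 303 kb, which held 0.218% and 0.142% from INT1, against 0% and 0.820% from INT2. Its place in that list came from 1 INT2 library, and the other had no read. Through that 0 the fit on log2 values ran towards INT1 (log2 4.28, SE 2.09, limma adjusted p = 0.46). The mean share was nevertheless higher from INT2, at 0.410% against 0.180% from INT1.

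In 10 kb windows the called differences lay far out on the higher side and ran towards INT1. Of 187 windows tested, 2 were called higher from INT1 (1.07%) and 0 higher from INT2 (0%), and 14 had an unadjusted p under 0.05. DESeq2, with its own library scaling, called 11 higher and 6 lower, and edgeR called 0. The window chr14:55290001-55300000, from 610 to 620 kb, held 0.196% and 0.248% from INT1, against 0.0165% and 0.0701% from INT2 (log2 2.69, SE 0.76, limma adjusted p = 0.049). The window chr14:55320001-55330000, from 640 to 650 kb, held 0.356% and 0.337% from INT1, against 0.0582% and 0.0666% from INT2 (log2 2.47, SE 0.66, limma adjusted p = 0.046). INT1 was 6.47 and 5.55 times INT2 in these windows, which rest on 3 and 4 captured fragments. As for the fragments, limma took the spread of every window from the trend over all windows. Without the trend the limma adjusted p was 0.85 for each window. With an INT2 library left out the first window ranged from 1.65 (without replicate 1) to 3.74 (without replicate 2) on the log2 scale, and the second from 2.38 to 2.57. Neither was called with no replicate block (limma adjusted p of 0.63 and 0.18), and the fits with a library left out had no block either. The INT1 libraries lay above the INT2 libraries in 42 windows (22.5%) and below them in 19 (10.2%).

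The balance between the sides was then compared as the log2 of lower-side over higher-side reads, which does not depend on the library size. Within 1 Mb it was -2.05 and -1.72 from INT1, against -2.28 and -2.13 from INT2, a difference of 0.32 (SE 0.45, limma adjusted p = 0.598). Both elements had more reads on the higher side in every library. Up to 50 kb the log2 ratio was -0.64 and -0.67 from INT1, against -2.78 and -1.60 from INT2. INT2 leaned further to the higher side in both libraries, by a difference of 1.53 (SE 0.45, 95% interval 0.44 to 2.62, limma adjusted p = 0.082), which was the largest of the 6 distances and was not called. With no replicate block it was called (adjusted p = 0.013). It was 2.12 without INT2 replicate 2, 0.94 without INT2 replicate 1, and 1.04 with fragments capped at the 95th percentile. INT1 also lay nearer to the lower side and INT2 nearer to the higher side, and a ratio corrected for this offset was not tested.

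At the other distances the differences were smaller. From 50 to 100 kb the ratio was -1.85 and -2.09 from INT1, against -3.13 and -2.09 from INT2 (difference 0.64, adjusted p = 0.581). From 100 to 250 kb it was -1.89 and -1.20 from INT1, against -1.65 and -1.88 from INT2. From 250 to 500 kb it was -2.16 and -1.98 from INT1, against -2.32 and -2.86 from INT2. From 500 to 1000 kb the order turned, with -2.70 and -2.21 from INT1 and -2.06 and -2.10 from INT2 (difference -0.37). Of the 6 ratios, 0 were called (0%), and 1 had an unadjusted p under 0.05.

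**Figure D4:**
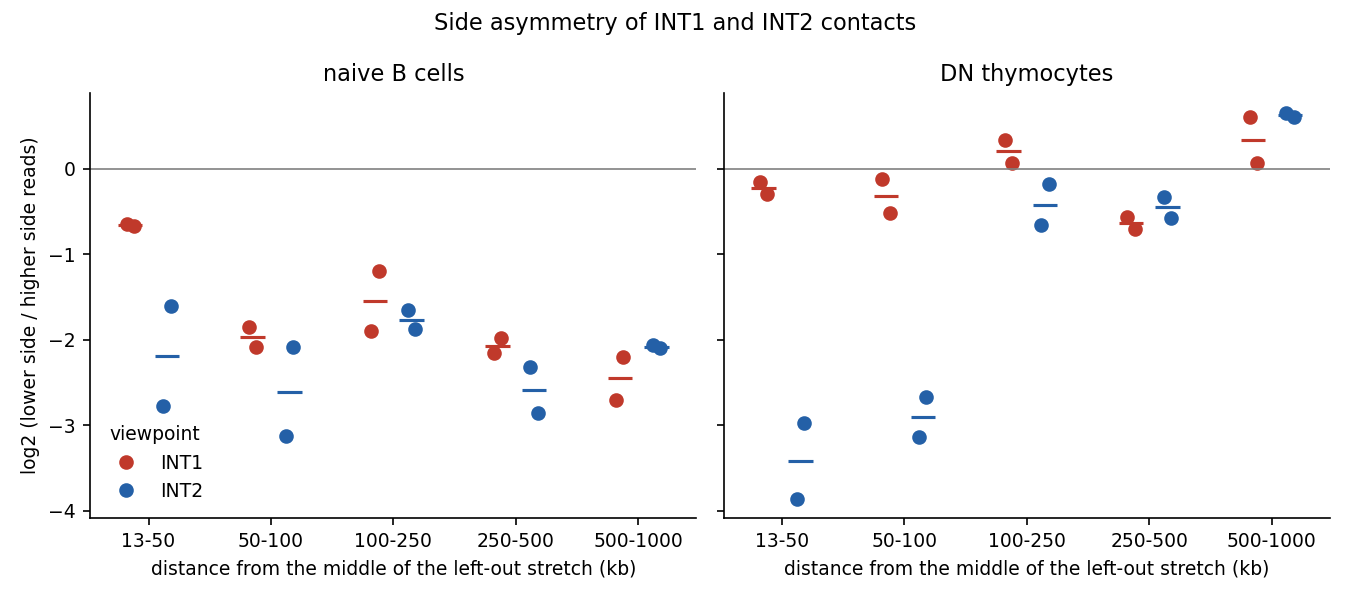
Log2 of lower-side over higher-side reads by distance band from INT1 and INT2, in naive B cells (left panel) and DN thymocytes (right panel), with 1 point per library and a line at the mean of 2. Up to 50 kb INT1 stands at -0.64 and -0.67 and INT2 at -2.78 and -1.60 in B cells, and the gap between the elements is wider in DN thymocytes.

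The same contrast in DN thymocytes was used to see where the B cells differ. Within 1 Mb on the higher side INT1 averaged 17.5% ± 0.4 and INT2 16.6% ± 0.3 of the chromosome 14 reads in B cells, against 32.3% ± 9.3 for INT1 and 48.3% ± 2.3 for INT2 in DN thymocytes (SD, n = 2 each). In the inner stretch up to TEA, the log2 INT1 over INT2 was -0.63 in B cells and -1.66 in DN thymocytes. The elements pointed the same way in both cell types and stood further apart in DN, with a difference between the contrasts of 1.03 (SE 0.34, limma adjusted p = 0.202). In the band from 50 to 100 kb on the higher side it was -0.73 in B cells and -1.85 in DN thymocytes (difference 1.12, SE 0.41, adjusted p = 0.202). Of the 17 segments, 0 differed between the cell types by this test (0%), and 2 had an unadjusted p under 0.05.

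At the closest distances the side ratios set INT1 and INT2 further apart in DN thymocytes than in B cells. Up to 50 kb the INT1 minus INT2 difference of the log2 ratio was 1.53 in B cells and 3.19 in DN thymocytes. In DN it came from -0.16 and -0.29 for INT1 and -3.86 and -2.98 for INT2. The difference between the cell types was -1.66 (SE 0.57, limma adjusted p = 0.040). From 50 to 100 kb the contrast was 0.64 in B cells and 2.59 in DN thymocytes, with a difference between them of -1.95 (SE 0.57, limma adjusted p = 0.032). The 2 calls among 6 ratios (33.3%) were lost with the fragments capped at the 95th percentile (adjusted p of 0.23 for each) and without B replicate 2, DN replicate 1 or DN replicate 2. Per the file headers both B samples were sequenced in 1 folder and each DN sample in another. Cell type and sequencing therefore cannot be told apart here, and the DN mice also lack Rag2, which the B cell donors carry. The B libraries had 20.2% to 23.2% of their chromosome 14 reads within 1 Mb, against 52.0% to 71.8% in DN. The contrast was not tested with the density of reads on other chromosomes subtracted. INT2 in DN replicate 1 had 1907814 mapped reads, the fewest of the libraries compared.

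**Figure D5:**
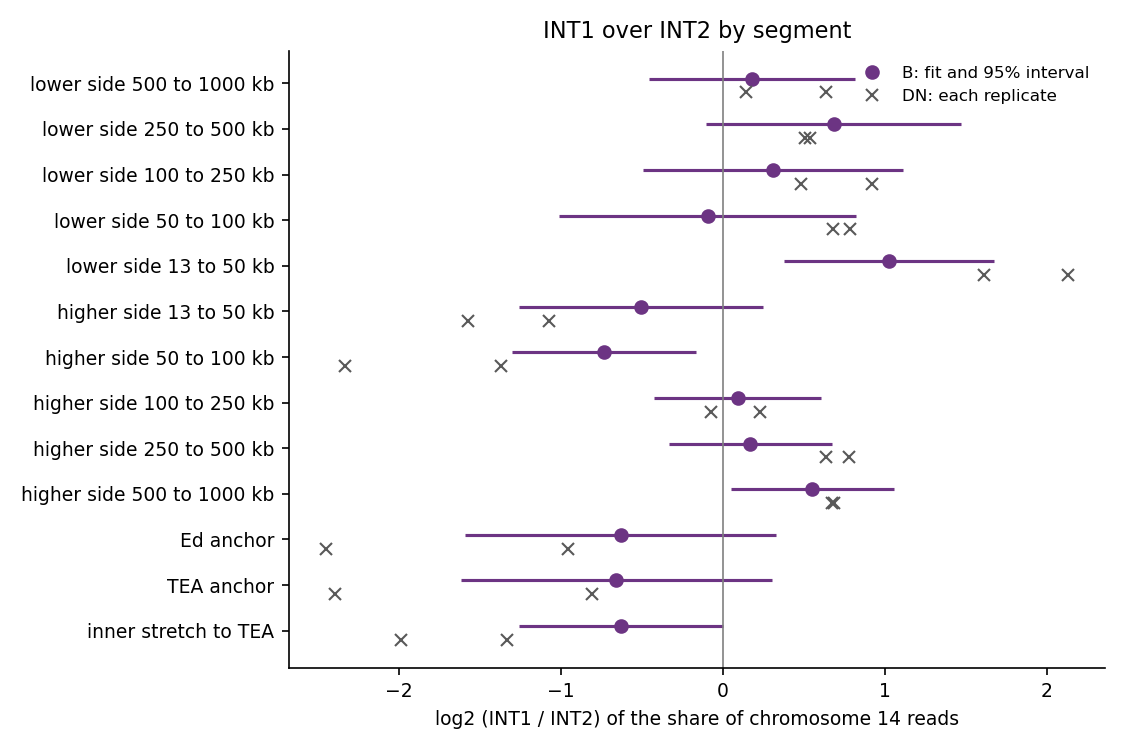
Log2 of INT1 over INT2 of the share of chromosome 14 reads by segment, with the fitted value and its 95% interval in B cells (circles and lines) and each DN replicate (crosses). An anchor is the region within 10 kb of a viewpoint fragment. In the inner stretch up to TEA the B value is -0.63, and both DN replicates lie further from 0 on the same side.

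Capture differed between the elements as well. Within 1 Mb the INT1 libraries captured 380 and 365 fragments, against 307 and 338 from INT2 (exact permutation test, two-sided, p = 0.333, the smallest possible), although the INT2 libraries had more reads. Both INT1 libraries captured 300 fragments, 67.4% of those captured by either. Both INT2 libraries captured 224, 53.2% of those captured by either. The 177 fragments found in all 4 libraries made up 59.0% of the 300 and 79.0% of the 224. On the lower side the overlap was smaller, with 49.7% of the INT1 fragments and 35.0% of the INT2 fragments found in both replicates. Fragments captured by all 4 libraries had a median length of 3769 bp, against 1381 bp for those known from other libraries of the study and captured by 0 of the 4.

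The level of single fragments was only loosely shared between replicates. Over the 462 tested fragments Pearson's r of the log2 shares was 0.42 between the INT1 replicates and 0.26 between the INT2 replicates. Between the elements it ranged from 0.25 to 0.30, as high as between the INT2 replicates. In 10 kb windows it was 0.57 between the INT1 replicates, 0.32 between the INT2 replicates and 0.47 to 0.54 between the elements. These correlations are across fragments or windows, which are not independent, and are given as a description.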

How the data were processed

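Chromatin contacts were measured by 4C-seq in 4 samples from 4 viewpoints each. Per the labels' protocols, crosslinked chromatin was cut with HindIII and ligated, and the product was cut with DpnII, ligated again and used in an inverse PCR. The submitters' processing notes name the tools CASAVA and Bowtie, both with no version, and mm9 as the build. The authors deposited RPM values, the reads of each HindIII fragment scaled to the mapped reads of its library, with fragments padded by 40 bp per the file headers. A fragment that a file does not list was set to 0. The deposited RPM values of the 4 B libraries gave whole reads (to within 0.01 of a read) for 100% of the fragments in 3 libraries and 99.9988% in INT2 replicate 2, and these reads were used as counts where named. The authors' averaged files were not used: the one named for INT2 in B carries a header of INT2 in DN.

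Each library was scaled to its chromosome 14 reads outside chr14:54667000-54693000. The values tested were log2(RPM of that total + 1), a scale that understates the change of low values, and they were fitted in limma 3.58.1 (R 4.3.3) with the B sample as a block, two-sided, with Benjamini-Hochberg adjustment and a threshold of 0.05. Fragments and 10 kb windows within 1 Mb with a mean of at least 10 reads were fitted with a mean-variance trend. The 17 segments and 6 side ratios were fitted without one. For fragments, windows and side ratios limma used a spread pooled over all members of the kind, not that of each member alone. INT1 and INT2 of a replicate come from the same GEO sample, which is the basis of the pairing. Over the 462 tested fragments the replicate differences of INT1 and INT2 had a correlation of 0.01, so a shared deviation was not seen in the data. The contrast with DN thymocytes was fitted as an interaction over 8 libraries, with the sample as a block. Single values were compared with exact permutation tests. edgeR 4.0.16 and DESeq2 1.42.0 were run on the recovered reads, as alternatives. The edgeR fits kept the library sizes of the limma fits. DESeq2 set its own size factors from the members fitted, so its results change the scaling as well as the test. In B cells, fits with a library left out had no replicate block. The limma fits of fragments and windows were also run on simulated counts with a dispersion common to all of them. Losses of a fragment from a single replicate were not modelled apart, so that run is no test of the fits under the capture seen here.

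The segments, the TEA and Ed fragments, the called fragments or windows whose libraries do not overlap (up to 10 per direction), and the 5 fragments with the highest mean from each element are named. Members, segments and lists were chosen with earlier results of these data known. The build's genome and annotation were not used here, so no sequences are printed and no genes are assigned to fragments.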

Additional observations from a re-analysis of the deposited data

Results flagged for a closer look

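2 side ratios stood out because the INT1 minus INT2 difference was not the same in the 2 cell types by the test of the interaction. Up to 50 kb the log2 of lower-side over higher-side reads gave a B contrast of 1.53 and a DN contrast of 3.19, a difference of -1.66 (limma adjusted p = 0.040). From 50 to 100 kb the B contrast was 0.64 and the DN contrast 2.59, a difference of -1.95 (limma adjusted p = 0.032). In 2 of 2 libraries per cell type INT2 leaned further to the higher side than INT1 up to 50 kb. The calls were lost without B replicate 2, DN replicate 1 or DN replicate 2, where the values ran from -2.26 to -1.06 up to 50 kb and from -2.58 to -1.31 from 50 to 100 kb over all left-out samples. Groups of 2 libraries were too small for a test of outlying samples. The limits given above on sequencing, Rag2 and the share of reads within 1 Mb apply here too.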

How the results depend on the processing

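Of 39 named results, 25 kept their direction under every alternative run. The 3 called fragments became 0 with no replicate block, with a pseudocount of 100, in edgeR and in limma without the trend; 0 with fragments capped at the 95th percentile, where all 3 were at the cap in every library; 1 with library size over all chromosomes, within 1 Mb or with no filter; 2 with TMM factors (1 of the 3, and 1 higher from INT1); 4 with a mean of at least 100 reads, with none of the 3 among them; and 26 in DESeq2 or over all fragments of chromosome 14. The 26 over all of chromosome 14 share 0 with the 3. With 1 library left out 0 to 46 were called: 43 without INT1 replicate 1, 46 without INT1 replicate 2, and 0 without INT2 replicate 1 or 2. The fragments called without an INT1 replicate were all higher from INT1, the opposite direction to the 3, and 0 of the 3 were among them. Those fits rest on 1 INT1 library. The 2 called windows became 17 in DESeq2 and 1 with a pseudocount of 100. They became 0 with no replicate block, both other library sizes, TMM factors, capping, the widened stretch and edgeR. They also became 0 with fragments counted once, no filter, no trend, and 20 or 5 kb windows. Of the segments, 5 were called with library size within 1 Mb, 2 in edgeR, 2 with the trend and 8 in DESeq2. Leaving out the TEA fragment, an alternative chosen after seeing the data, gave 0. Of the side ratios, 1 was called with no replicate block. The 2 differences between cell types became 0 with capping and 0 to 2 with a sample left out, and with no replicate block they were still called. After subtracting the density of other chromosomes, the shares within 1 Mb were 73.6% and 71.6% (INT1) against 68.5% and 60.6% (INT2). The excess of INT1 was then 8.01 points, against 2.04 points on shares of 20.2% to 23.2% without the subtraction. The subtraction also reduced the chromosome 14 total, so these points are not on the same scale. The excess was -0.362 with fragments counted once, and 1.13 to 2.94 with a library left out.

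Directions (log2 INT1 over INT2) turned as follows; where no construction is named, the cause was not tested. With fragments counted once, the values are set against each library's number of chromosome 14 fragments, which was higher for INT1, and in the lower band up to 50 kb nearly all fragments were captured by every library, so that these values say little of the bands. The higher side within 1 Mb was -0.13, the lower side up to 50 kb -0.29, the higher side from 100 to 250 kb -0.10 and from 250 to 500 kb -0.076, the lower side from 500 to 1000 kb -0.15 and the higher side from 500 to 1000 kb -0.092. With library size within 1 Mb, the higher side was -0.064, its band from 100 to 250 kb -0.046 and its part beyond 1 Mb -0.13. That part was -0.017 with capping and -0.080 in DESeq2, where the higher side within 1 Mb was -0.018. With capping the lower side from 50 to 100 kb was 0.027, and with TMM factors the Ed fragment was 0.076. With a library left out, values that turned in at least 1 case ranged from -0.43 to 0.31 at the Ed fragment, -0.60 to 0.24 at chr14:54706512-54721932, -1.57 to 0.20 at chr14:54741524-54748874, -2.22 to 10.78 at chr14:54979633-54986655, -0.58 to 0.39 on the lower side from 50 to 100 kb, -0.052 to 0.67 from 100 to 250 kb and -0.034 to 0.39 from 500 to 1000 kb, -0.0028 to 0.026 on the higher side beyond 1 Mb, and -0.13 to 0.57 for the side ratio from 100 to 250 kb. The precision is limited by 2 libraries per element and by capture, which left 93 fragments within 1 Mb at 0 in all 4 libraries.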
